A study of Mus musculus with 6 samples.

Results

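The promoters of 10 CC chemokine genes, which lie in 2 blocks on mouse chromosome 11, were examined for DNA methylation in adipose tissue of mice born to dams on a low chromium diet. The first block (probes at mm9 chr11:81847779-81929155) holds Ccl2, Ccl7, Ccl11, Ccl12 and Ccl8, and the second (chr11:83335134-83476530) holds Ccl5, Ccl9, Ccl6, Ccl3 and Ccl4. The members were taken by position alone. All promoter probes of the array that start inside either of 2 windows drawn around these genes, 95 kb and 150 kb wide, were taken. After 1 of them, at Ccl9, was removed as an outlier, a probe was joined to its neighbor when their starts were no more than 500 bp apart. This gave 16 runs of joined probes with 90 probes in all, 5 runs in the first block and 11 in the second. The whole array gave 25078 runs with 174276 probes after outliers were removed. Differences were tested in the 12 runs with at least 3 probes, of 22584 such runs in all.

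CC chemokines are small secreted proteins that bind to receptors on white blood cells and direct their movement into tissues. The genes of the first block encode the monocyte chemoattractant proteins and eotaxin, and those of the second encode RANTES and the macrophage inflammatory proteins. In adipose tissue these proteins come from adipocytes, stromal cells and resident immune cells, and Ccl2 is known for the recruitment of macrophages into fat in obesity. Methylation of cytosine in CpG dinucleotides is one of the marks by which promoters differ between cell types, and many promoters of immune genes are poor in CpG.

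Fat of 3 LC mice and 3 CC mice was collected at 32 weeks of age. The LC mice were the pups of dams fed a low chromium diet during gestation and lactation and were given the control diet after weaning, and the CC mice had the control diet at both stages. All were female C57BL/6J offspring, with 1 female pup taken from each litter and 1 mouse per array. On each array the DNA captured with an antibody against methylated cytosine (MeDIP) carried Cy5, and the input, which is DNA of that mouse without enrichment, carried Cy3. The level given below is log2(MeDIP/input) minus the median of the array, so that 0 is the middle of all promoter probes and a higher value stands for more captured DNA. The fat depot was not given in the sources used here. Whole tissue was used, so that a change in methylation within a cell type and a change in the mix of cells cannot be told apart, and arrays of promoter DNA offer no marker genes by which the labeled tissue could be checked.

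The files place each probe by its mm9 position and name no genes. The names used here rest on order. Runs less than 1000 bp apart were grouped into stretches, a distance chosen after the positions were seen. The 5 stretches of the first block then met the 5 genes that RefSeq lists there in the only possible order, and the spacing of the stretches departed from that of the gene ends by at most 0.08 kb. The second block had 7 stretches and 2 possible orders of genes. The order used departed from the gene spacing by at most 2.84 kb, against 42.9 kb in the other. It puts Heatr9, a gene for a protein with HEAT repeats, before Ccl5 and the long noncoding RNA E230016K23Rik between Ccl9 and Ccl6. Neither is a chemokine gene, and both runs are reported with the block.

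The sequences of 5 of the 10 promoters were at hand from RefSeq (GRCm38.p6), and they are shown because the antibody can capture only DNA that holds methylated cytosines, which lie mostly in CpG sites. The DNA was sonicated, and CpG sites next to a window can also lie on a captured fragment. Each sequence is the 250 bases before the gene's start, 5′ to 3′ on the strand of the gene, with each CpG in capitals. Their positions are chr11:82101595-82101844 (+) for Ccl12, chr11:82114935-82115184 (+) for Ccl8, chr11:83578637-83578886 (-) for Ccl9, chr11:83593088-83593337 (-) for Ccl6 and chr11:83649379-83649628 (-) for Ccl3. These coordinates are not on the mm9 scale of the array.
Ccl12: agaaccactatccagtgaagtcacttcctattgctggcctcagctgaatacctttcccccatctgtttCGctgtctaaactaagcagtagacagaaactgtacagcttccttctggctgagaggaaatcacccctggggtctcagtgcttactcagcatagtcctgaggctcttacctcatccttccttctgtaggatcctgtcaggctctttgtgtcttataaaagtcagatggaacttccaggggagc
Ccl8: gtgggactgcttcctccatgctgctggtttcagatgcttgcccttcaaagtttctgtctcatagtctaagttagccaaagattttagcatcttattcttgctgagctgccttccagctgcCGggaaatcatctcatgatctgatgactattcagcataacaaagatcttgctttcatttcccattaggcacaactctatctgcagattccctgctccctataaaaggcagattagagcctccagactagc
Ccl9: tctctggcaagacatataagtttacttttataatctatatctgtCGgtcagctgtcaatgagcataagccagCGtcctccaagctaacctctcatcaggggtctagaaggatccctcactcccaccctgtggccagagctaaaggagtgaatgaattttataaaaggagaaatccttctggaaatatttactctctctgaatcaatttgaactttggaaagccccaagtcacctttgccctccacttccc
Ccl6: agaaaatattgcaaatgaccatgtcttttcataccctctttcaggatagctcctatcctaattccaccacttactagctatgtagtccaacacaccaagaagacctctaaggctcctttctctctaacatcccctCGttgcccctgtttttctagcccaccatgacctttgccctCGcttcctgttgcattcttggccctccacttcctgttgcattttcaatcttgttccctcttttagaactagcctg
Ccl3: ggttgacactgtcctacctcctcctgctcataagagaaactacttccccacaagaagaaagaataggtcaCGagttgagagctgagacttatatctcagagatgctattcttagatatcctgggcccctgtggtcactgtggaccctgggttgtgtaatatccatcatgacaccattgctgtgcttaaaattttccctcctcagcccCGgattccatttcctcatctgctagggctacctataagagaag

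Few capitals stand in these sequences. The promoters of Ccl12 and Ccl8 each held 1 CpG, and those of Ccl9, Ccl6 and Ccl3 each held 2. Among 32851 mouse promoters of the same length the median was 6, with at most 1 CpG in 18.8% and at most 2 in 29.0%. The letters TATAAA, a form of the TATA box, began 31 bases before the start in Ccl12, 32 bases before it in Ccl8 and 92 bases before it in Ccl9. On the opposite strand TATAAA was matched at 2 places in Ccl9, and 1 of these matches overlaps the match on the strand of the gene. The windows of Ccl6 and Ccl3 did not hold these letters on either strand, and 12.4% of all promoters held them on at least 1 strand. The 10-base consensus of NF-κB, a transcription factor that drives many chemokine genes in inflammation, was found once in Ccl9 and in 7.25% of all promoters. These matches describe letters in a window and not sites in use.

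In the first block, genes with like roles differed widely in level. Ccl2, the main monocyte attractant, was covered by 8 probes (mm9 chr11:81847779-81849441) at -0.22 ± 0.13 (SD, n = 3) in the LC group and -0.41 ± 0.09 (SD, n = 3) in the CC group. The run of Ccl7, another monocyte attractant (chr11:81857946-81859549, 8 probes), had the lowest level of the block, at -0.93 ± 0.12 in LC and -0.81 ± 0.02 in CC. Ccl11, the eotaxin that attracts eosinophils (chr11:81870142-81871594, 7 probes), was at -0.35 ± 0.13 in LC and -0.48 ± 0.06 in CC. The level turned positive in the last part of the block. Ccl12, a ligand of the monocyte receptor Ccr2 (chr11:81914047-81915741, 8 probes), was at 0.13 ± 0.09 in LC and 0.12 ± 0.01 in CC. Ccl8, also of the monocyte chemoattractant family (chr11:81927464-81929155, 9 probes), was at 0.48 ± 0.12 in LC and 0.27 ± 0.09 in CC. Averaged over the 6 arrays, the levels of Ccl2, Ccl7 and Ccl11 stood at percentiles 39.1, 13.9 and 33.2 of all runs tested, and those of Ccl12 and Ccl8 at 68.8 and 83.0.

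In the second block, single promoters were split into runs of unlike level. The level of Heatr9, at the start of the block (chr11:83335134-83336752, 7 probes), averaged -0.30 ± 0.14 (SD, n = 3) over the LC mice and -0.40 ± 0.06 over the CC mice. Ccl5, or RANTES, which attracts T cells and monocytes, had 5 probes (chr11:83343521-83344500) at 0.37 ± 0.08 in LC and 0.33 ± 0.03 in CC, and 2 more (chr11:83344954-83345208) at -0.93 ± 0.05 and -0.98 ± 0.09. The mean of the first run of Ccl5 thus lay above the middle of the array and that of the second below it. Its 5 probes were, in order, at -1.76, 1.97, 1.12, -1.17 and 1.58 over the arrays, and the other 2 at -0.69 and -1.22. These run means therefore do not stand for stretches of even level. Ccl9, a ligand of Ccr1, had 2 probes (chr11:83391780-83392031) at 0.68 ± 0.06 in LC and 0.71 ± 0.06 in CC, and 3 more (chr11:83392799-83393267) at 0.54 ± 0.20 and 0.29 ± 0.15. E230016K23Rik (chr11:83394300-83395943, 8 probes) was at -0.78 ± 0.06 in LC and -0.92 ± 0.07 in CC.

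The remaining 3 chemokine genes of the block lay below 0 in their tested runs. Ccl6, which also binds to Ccr1, had 6 probes (chr11:83406090-83407200) at -0.77 ± 0.13 (SD, n = 3) in LC and -0.54 ± 0.11 in CC, and 1 probe (chr11:83407807-83407852) at 0.15 ± 0.11 and 0.37 ± 0.12. Ccl3, a macrophage inflammatory protein that attracts monocytes and T cells, had 5 probes (chr11:83462391-83463271) at -0.58 ± 0.09 in LC and -0.73 ± 0.01 in CC, and 2 probes (chr11:83463727-83463998) at 0.62 ± 0.26 and 0.66 ± 0.24. Ccl4, its close relative, had 9 probes (chr11:83474792-83476530) at -0.08 ± 0.04 in LC and -0.24 ± 0.04 in CC. The short runs with fewer than 3 probes were not tested.

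**Figure D1:**
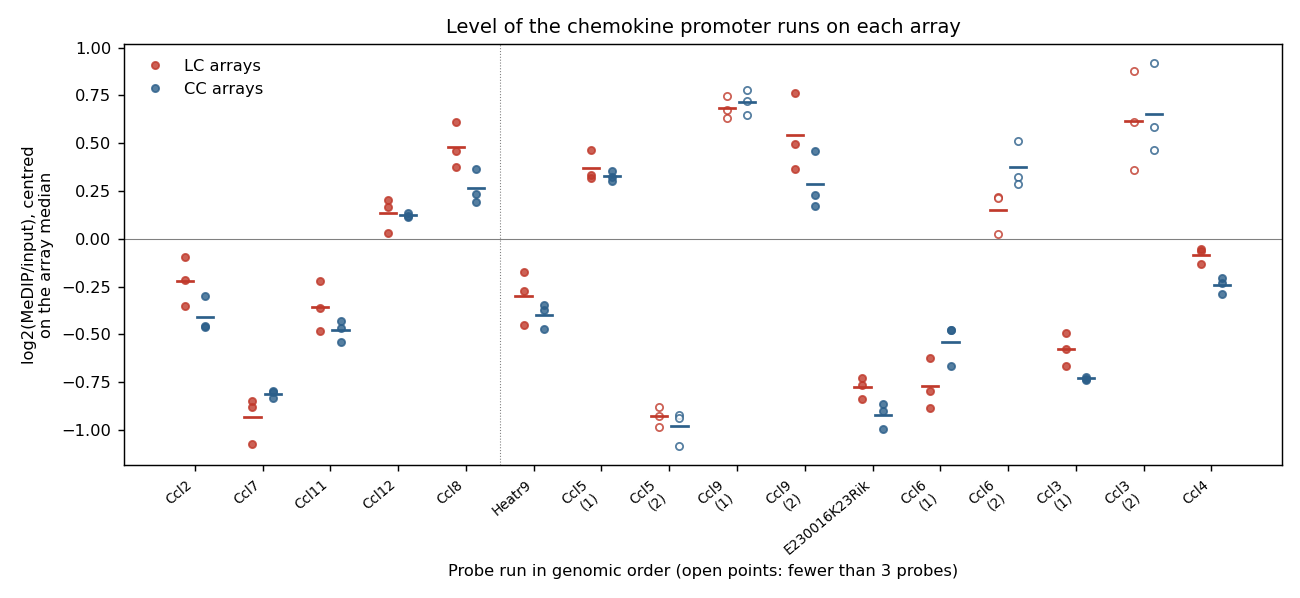
Level of each of the 16 runs on every array, with log2(MeDIP/input) centered on the array median on the vertical axis and the runs in genomic order on the horizontal axis. Red points are LC arrays and blue points CC arrays, short lines are group means, open points mark runs with fewer than 3 probes, and the dotted line separates the blocks. The span between runs, from -0.96 at the second run of Ccl5 to 0.70 at the first run of Ccl9, is far wider than the gap between LC and CC at any run.

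Over all probes of each gene and all 6 arrays, the order of the levels was Ccl9 (0.53), Ccl8 (0.37), Ccl12 (0.13), Ccl5 (-0.02), Ccl4 (-0.16), Ccl3 (-0.29), Ccl2 (-0.31), Heatr9 (-0.35), Ccl11 (-0.42), Ccl6 (-0.52), E230016K23Rik (-0.85) and Ccl7 (-0.87). From Ccl9 down to Ccl3, each gene stood above the next on 6 of 6 arrays, with mean steps of 0.12 to 0.25. Lower down the order was not fixed. Ccl3 stood above Ccl2 on 3 of 6 arrays, Ccl2 above Heatr9 on 4, Heatr9 above Ccl11 on 5 and Ccl11 above Ccl6 on 4. These neighbors thus had no order shared by the 6 arrays. Ccl11 stood above Ccl6 on every LC array but not on every CC array. Ccl6 stood above E230016K23Rik on 6 of 6 arrays by 0.33 on average. E230016K23Rik stood above Ccl7 on 3, which were the LC arrays, and below it on every CC array. The level of a probe depends on its own CpG sites and length as well as on methylation, so that this order describes probes and is no ranking of methylation per CpG.

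Probe length was set beside the levels because the probes of the blocks were longer than most. Of the 90 probes, 34.4% were 45 bases and 18.9% were 60 bases long, against 49.9% and 13.2% of all probes. When each run was ranked only among runs whose mean probe length lay within 1 base of its own, Ccl8 stood at percentile 94.7, the longer run of Ccl5 at 92.9 and the tested run of Ccl9 at 96.3. Ccl7 moved from 13.9 to 30.6 by the same step, and E230016K23Rik from 14.5 to 7.91. The median level of the 12 tested runs was -0.33, against -0.15 for all runs and -0.29 for the 10768 runs with a mean probe length of 47.9 to 54 bases, the range of the 12.

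Within a promoter the probes differed far more than the groups did. At Ccl7 the lowest of 8 probes had a level of -3.86 and the highest of 1.70, and at Ccl8 the probes ran from -2.97 to 1.93. The narrowest span was that of Ccl4, from -1.98 to 0.93. Each of the 10 chemokine promoters held probes on both sides of 0. The MeDIP signal of 21 of the 90 probes (23.3%) was not well above background on any array, against 22.7% of all probes, and at such probes the level is bounded by background in the MeDIP channel. They include the lowest probe of Ccl7, of Ccl8 and of Ccl6.

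**Figure D2:**
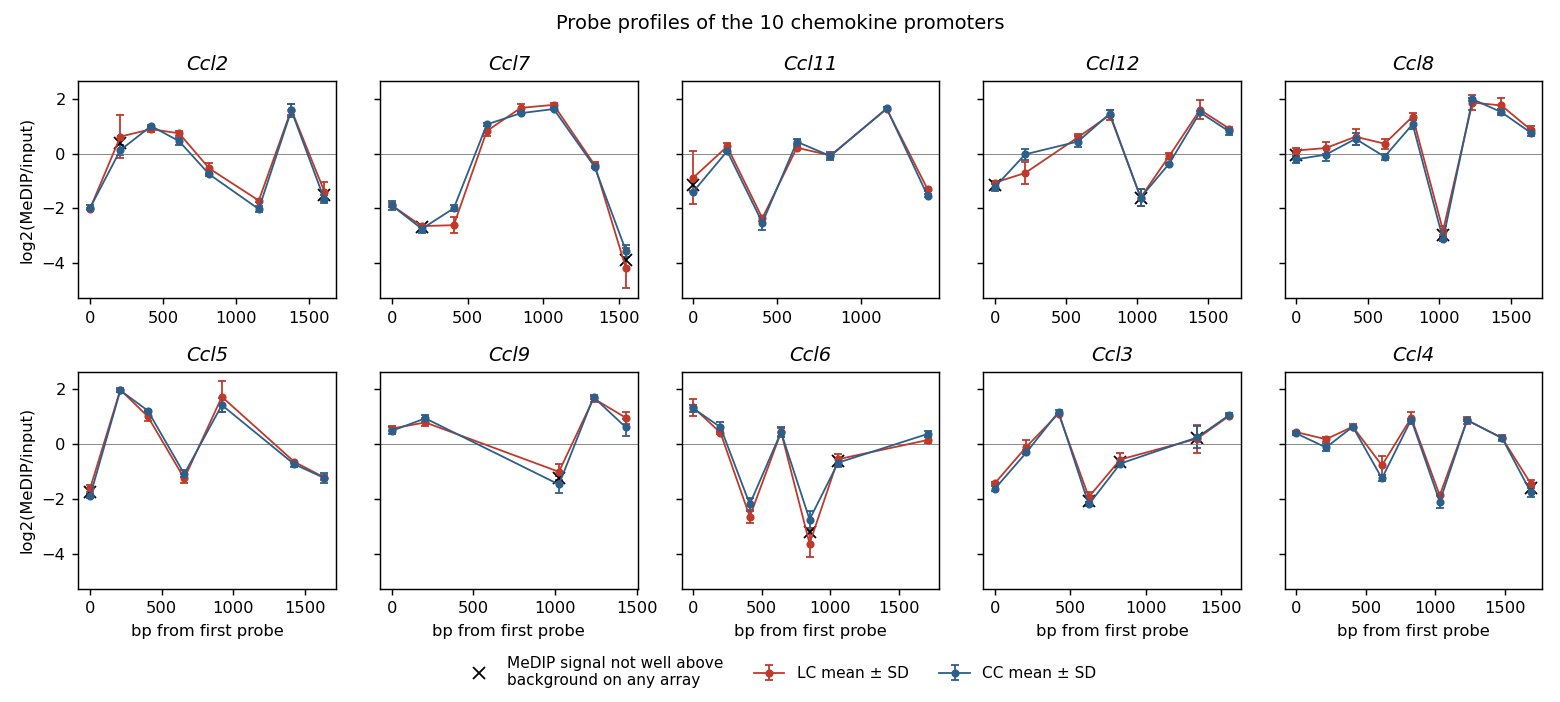
Probe profiles of the 10 chemokine promoters, with distance in bp from the first probe on the horizontal axis and log2(MeDIP/input) centered on the array median on the vertical axis. Points are group means (red LC, blue CC) with SD over 3 arrays, and crosses mark probes whose MeDIP signal was not well above background on any array. The LC and CC profiles run close together at nearly all probes, while neighboring probes of a promoter differ by up to several units.

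The comparison of LC with CC asks whether maternal chromium restriction left a mark at these promoters in the adult offspring. By limma's moderated test on the run means with Benjamini-Hochberg adjustment over all 22584 runs, 1 of the 12 tested runs was higher in LC (Ccl4) and 0 were lower. Of all runs, 10.2% were called higher and 8.84% lower, so that the count in the chemokine blocks was not above the background. That background was not the same in every fit. When CC replicate 1 or CC replicate 3 was left out, or a replicate block was used, limma called 0 of all runs. In these fits limma put 2935 to 3739 lower and 3182 to 4521 higher at an unadjusted p under 0.05. Without any 1 of the other arrays, limma called 517 to 2368 of all runs lower and 614 to 2863 higher. Why the calls moved was not tested. At an unadjusted p under 0.05, limma put 6 of the 12 runs higher and 1 lower, with 21.5% and 17.2% of all runs. The LC arrays lay entirely above the CC arrays at 4 runs (Ccl8, E230016K23Rik, the longer run of Ccl3, and Ccl4) and entirely below at 1 (Ccl7), against 24.1% and 20.5% of all runs. Where the groups do not differ by the test, the interval of the difference bounds what was measured, and a p above the threshold does not show that the groups were alike.

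The differences were small and mostly above 0. The LC minus CC difference was above 0 at 10 of the 12 runs, with a median of 0.14, against a median of 0.02 and 53.8% above 0 for all runs, and a median of -0.01 and 46.3% above 0 for the 1666 tested runs of chromosome 11. The median of the 12 runs was smaller after loess, at 0.080 against -0.0017 for all runs. It was 0.075 against 0.039 after normexp background correction and 0.049 against 0.0063 in the authors' processed values. Over probes well above background in both channels it was 0.029, with 5 of the 10 runs left above 0. The median of all runs was then -0.049, with 36.5% above 0. Probe length moved with the difference. Among the 10768 runs with probes of like length, the median difference was 0.06 and 67.9% were above 0. How much of the difference in the blocks goes with probe length was not tested.

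**Figure D3:**
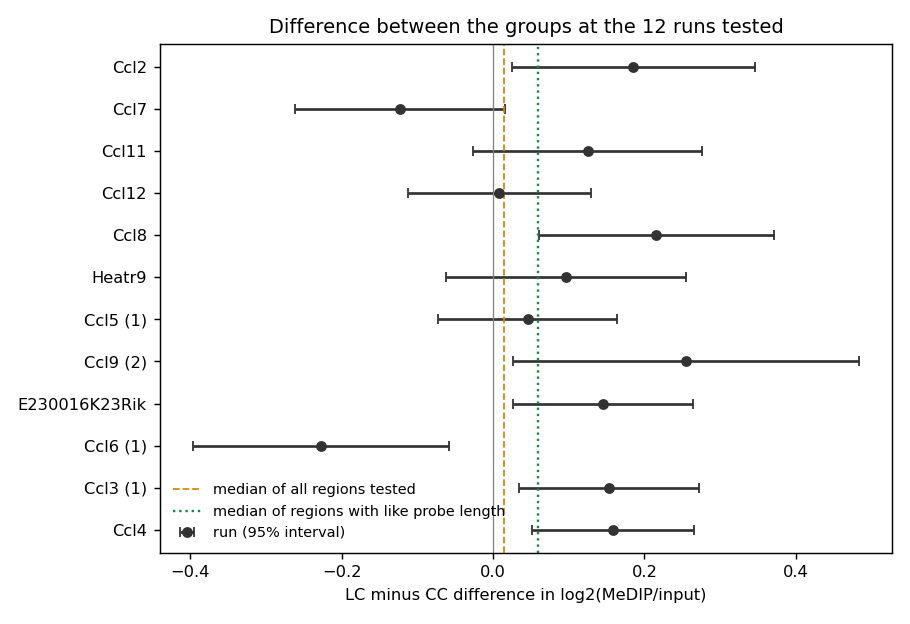
LC minus CC difference in log2(MeDIP/input) at the 12 tested runs, on the horizontal axis, with bars for the 95% interval of limma's fit. The dashed line is the median of all runs tested (0.02) and the dotted line the median of runs with like probe length (0.06). The points of 10 runs lie above 0, those of Ccl7 and Ccl6 below, and the intervals of Ccl2, Ccl8, Ccl9, E230016K23Rik, Ccl6, Ccl3 and Ccl4 do not reach 0 before adjustment.

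Ccl4 was the run called. The level was -0.05, -0.06 and -0.13 in LC replicates 1, 2 and 3 and -0.23, -0.29 and -0.21 in CC replicates 1, 2 and 3. The lowest LC array thus lay above the highest CC array, and both groups were narrow. LC exceeded CC by 0.16 (standard error 0.05, 95% interval 0.05 to 0.27, limma adjusted p = 0.0465). Between the arrays scanned on the same day it was 0.18, 0.22 and 0.07. The call was lost with a replicate block, which is a block on scan day (limma adjusted p = 0.0836), with a slide block (0.174) and without any 1 of the 6 arrays (limma adjusted p = 0.0528 to 0.141, with differences of 0.14 to 0.18).

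The probes of the Ccl4 run did not share the difference evenly. From the first probe to the last, the LC minus CC difference was 0.05, 0.30, 0.00, 0.47, 0.06, 0.23, -0.01, 0.00 and 0.31. Probes 2, 4, 6 and 9 therefore carried nearly all of it, and the other 5 were within 0.06 of 0. When the median over the probes was taken in place of the mean, the difference was 0.002 (limma adjusted p = 0.990). At probe 9 the MeDIP signal was not well above background on any array.

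Ccl8 came next to the threshold in the first block. Its level was 0.61, 0.37 and 0.46 in LC replicates 1, 2 and 3 and 0.19, 0.24 and 0.37 in CC replicates 1, 2 and 3. The groups did not overlap, but LC replicate 2 (0.374) and CC replicate 3 (0.366) nearly met. The difference was 0.22 (standard error 0.07, 95% interval 0.06 to 0.37, limma adjusted p = 0.0545). By scan day it was 0.42, 0.14 and 0.09, and it was 0.15 without LC replicate 1 and 0.27 without LC replicate 2, where the limma adjusted p was 0.0287. After loess it was 0.11, after normexp 0.038, in the authors' processed values 0.059 and with the median over probes 0.077.

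At Ccl2 the values were -0.10, -0.35 and -0.22 in LC replicates 1, 2 and 3 and -0.46, -0.46 and -0.30 in CC replicates 1, 2 and 3. LC replicate 2 lay below CC replicate 3, so that the groups overlapped. The difference of 0.18 (standard error 0.07, 95% interval 0.02 to 0.35) did not pass the threshold (limma adjusted p = 0.0903), and by scan day it was 0.37, 0.10 and 0.09. It was 0.061 after normexp, 0.096 after loess, 0.040 in the authors' processed values and 0.12 without LC replicate 1. Ccl11 was at -0.22, -0.48 and -0.36 in LC replicates 1, 2 and 3 and at -0.47, -0.54 and -0.43 in CC replicates 1, 2 and 3. There the groups overlapped too. Its difference was 0.12 (95% interval -0.03 to 0.28, limma adjusted p = 0.199). It was 0.057 without LC replicate 1 and 0.19 without LC replicate 2, and after normexp it passed the threshold at 0.12 (limma adjusted p = 0.0458).

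Ccl7 and Ccl12 completed the first block. At Ccl7, the LC arrays at -1.07, -0.85 and -0.88 all lay below the CC arrays at -0.79, -0.80 and -0.83. The gap between the groups was only as wide as that between LC replicate 2 and CC replicate 3, and the difference of -0.12 (95% interval -0.26 to 0.02) gave a limma adjusted p of 0.171. It was -0.28 between the arrays of the first scan day and -0.05 and -0.04 on the other days. In the authors' processed values it was -0.15 (limma adjusted p = 0.0366), and with the median over probes 0.033. At Ccl12 the groups lay on top of each other, with a difference of 0.01 and a 95% interval of -0.11 to 0.13 (limma adjusted p = 0.922).

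In the second block, the 3-probe run of Ccl9 showed the largest difference of the 12, and the widest spread. Its level was 0.76, 0.36 and 0.49 in LC replicates 1, 2 and 3 and 0.17, 0.23 and 0.46 in CC replicates 1, 2 and 3. CC replicate 3 lay among the LC arrays. The difference was 0.26 (standard error 0.10, 95% interval 0.03 to 0.48, limma adjusted p = 0.0978). By scan day it was 0.59, 0.14 and 0.04, and it was 0.14 without LC replicate 1 and 0.13 after normexp. In the authors' processed values it was 0.18 (limma adjusted p = 0.0439). Over all 5 probes of Ccl9, joined into 1 run at 1000 bp, it was 0.14 (limma adjusted p = 0.117). The other run of Ccl9, with 2 probes, had overlapping groups and a difference of -0.03.

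Ccl6 ran the other way. Its longer run was at -0.80, -0.63 and -0.88 in LC replicates 1, 2 and 3 and at -0.67, -0.48 and -0.48 in CC replicates 1, 2 and 3. LC replicate 2 lay above CC replicate 1, so that the groups overlapped, although the difference was below 0 on each scan day (-0.13, -0.15 and -0.40). Over all arrays it was -0.23 (standard error 0.08, 95% interval -0.40 to -0.06, limma adjusted p = 0.0590). The lone probe of the other Ccl6 run was also lower on all LC arrays, by 0.22 on average. From the first probe of the longer run to its last, the difference was 0.04, -0.20, -0.46, 0.00, -0.87 and 0.13. At the probe with -0.87 and at the last, the MeDIP signal was not well above background on any array. Over probes well above background in both channels the difference was -0.15 (limma adjusted p = 0.0940). Over the longer run the difference was 0.060 with the median over probes and -0.092 after normexp. A replicate block gave a limma adjusted p of 0.0700. The threshold was passed after loess (-0.34, limma adjusted p = 0.0462) and in the authors' processed values (-0.22, limma adjusted p = 0.0261). It was also passed over probes well above background in input (-0.23, limma adjusted p = 0.0360). With a trend on mean level removed, the difference was -0.30 (limma adjusted p = 0.0414). With runs joined at 1000 bp, a setting chosen after the data were seen that puts all 7 probes of Ccl6 into 1 run, the difference was -0.23 with a limma adjusted p of 0.0496.

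For Ccl3 the longer run was at -0.57, -0.67 and -0.49 in LC replicates 1, 2 and 3 and at -0.72, -0.73 and -0.74 in CC replicates 1, 2 and 3, with no overlap and a CC spread of 0.01. The difference was 0.15 (95% interval 0.03 to 0.27, limma adjusted p = 0.0669). It was 0.042 in the authors' processed values and 0.070 after loess. The 2 probes of its other run had overlapping groups and a difference of -0.04, and over all 7 probes joined at 1000 bp the difference was 0.10 (limma adjusted p = 0.169). E230016K23Rik differed by 0.15 (95% interval 0.03 to 0.26, limma adjusted p = 0.0780) without overlap, Heatr9 by 0.10 (95% interval -0.06 to 0.25, limma adjusted p = 0.334) and the longer run of Ccl5 by 0.05 (95% interval -0.07 to 0.16, limma adjusted p = 0.543), both with overlap. After normexp the difference of E230016K23Rik was 0.20 (limma adjusted p = 0.00487). With a trend on mean level removed it was 0.054 (limma adjusted p = 0.442).

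Within scan days, which held 1 LC and 1 CC array each, 9 of the 12 runs were higher in LC on all 3 days and 2 (Ccl7 and Ccl6) were lower on all 3. The share of all runs that did so was not counted. It is at least that of the runs without overlap, 24.1% with LC above and 20.5% with LC below. Lack of overlap is the stricter condition, so the share can be well above these values. The counts of 9 and 2 therefore do not set the blocks apart from the array. The difference was largest on the first day at Ccl2, Ccl7, Ccl11, Ccl8, Ccl9, E230016K23Rik and the longer run of Ccl5. LC replicate 1 of that day was also the array with the dimmest input channel, where the median signal above local background was 105 intensity units. The other LC arrays were at 126 and 169 and the CC arrays at 239.5, 314 and 333.5. The part of this in the differences was not tested. Slide position cannot be told apart from group either, since position 1 held every LC array and position 3 every CC array.

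Taken probe by probe, limma called 1 of the 90 probes lower in LC and 0 higher, against 4.29% and 1.75% of all 174276 probes. The probe called lies in the Ccl7 run (mm9 chr11:81858363-81858407) and is 45 bases long. It was at -2.93, -2.53 and -2.37 in LC replicates 1, 2 and 3 and at -1.996, -1.87 and -2.11 in CC replicates 1, 2 and 3. All LC arrays lay below all CC arrays, and LC minus CC came to -0.62 (standard error 0.15, limma adjusted p = 0.0496). The call was lost after loess, after quantile normalization, with all arrays scaled to 1 spread, with a slide block, by the methods' t-test, and without LC replicate 1 or any 1 of the CC arrays. LC arrays lay entirely below CC arrays at 6 of the 90 probes and entirely above at 17, against 17.7% and 20.7% of all probes.

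Other probe differences ran both ways. The largest in size of all was at a 60-base probe of Ccl6 (chr11:83406939-83406998), at -0.87 with overlapping groups (limma adjusted p = 0.0638). Its MeDIP signal was not well above background on any array, and the same held for a probe of Ccl7 (-0.64), of Ccl11 (0.51) and of Ccl2 (0.49), so that these differences are limited by background. A 45-base probe of Ccl12 (chr11:81914263-81914307) was at -1.15, -0.43 and -0.54 in LC replicates 1, 2 and 3 and at 0.01, 0.14 and -0.23 in CC replicates 1, 2 and 3, a difference of -0.68 (limma adjusted p = 0.0635). The groups did not overlap. The input signal of this probe was brighter than that of 99.9% of all probes. A probe of Ccl8 (chr11:81928082-81928138) was higher on all LC arrays, at 0.57, 0.22 and 0.30 against -0.06, -0.24 and -0.04, a difference of 0.48 (limma adjusted p = 0.0522). The Ccl12 run as a whole thus held a probe with a large difference within a mean difference near 0.

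The ratio joins 2 channels, and these were also tested alone. In the MeDIP channel, after quantile normalization between arrays, limma called 0 of the 12 runs and 0 of all 22584 runs (0% lower and 0% higher), and 0 of the 12 had an unadjusted p under 0.05, against 10.9% of all runs. In the input channel limma called 1 of the 12 runs (Ccl6, higher in LC), against 14.1% of all runs, and 3 of the 12 had an unadjusted p under 0.05, against 31.5%. Leaving signs aside, the LC minus CC difference of input exceeded that of MeDIP at 12 of 12 runs. The difference in input had the opposite sign to that of the ratio at 11 of 12, Ccl12 being the exception. Because the ratio divides by input, a difference in input alone gives the ratio the opposite sign. Neither share was counted over all runs, so these counts do not set the chemokine blocks apart from the rest of the array.

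At Ccl4 the input channel differed by -0.11 (standard error 0.04, limma adjusted p = 0.123) and the MeDIP channel by 0.04 (standard error 0.02, limma adjusted p = 0.565). At Ccl6 the input channel was 0.24 higher in LC (standard error 0.07, limma adjusted p = 0.0427), while the MeDIP channel differed by -0.01. For Ccl8 these differences were -0.07 in input and 0.01 in MeDIP, for Ccl2 they were -0.10 and 0.00, for Ccl9 they were -0.12 and 0.07, and for Ccl7 they were 0.14 and 0.03. Each channel was quantile normalized on its own while the ratio was only centered, so the channel differences need not add up to that of the ratio. At Ccl8, for example, the ratio differed by 0.22. Input DNA was not enriched for methylation. What made the input channels differ at these runs was not tested.

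**Figure D4:**
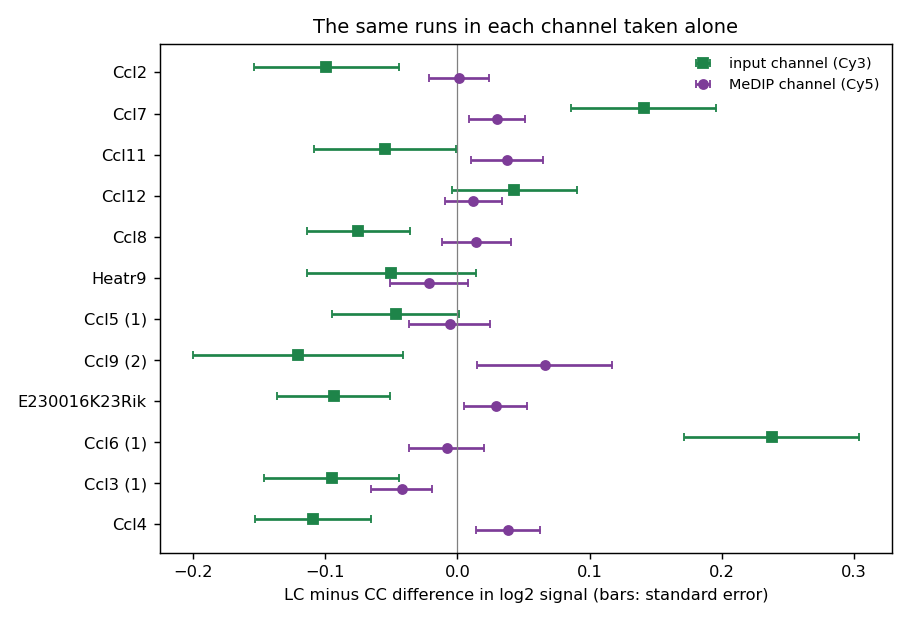
LC minus CC difference in log2 signal of each channel taken alone at the 12 tested runs, on the horizontal axis, with bars for the standard error of limma's fit. Green squares are the input channel and purple circles the MeDIP channel. The purple circles stay within 0.07 of 0 at all 12 runs, while the green squares reach from -0.12 at Ccl9 to 0.24 at Ccl6.

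A Kolmogorov-Smirnov search for runs of neighboring probes that rank low or high among all probe differences, close to the peak search of the study, found 0 lower and 0 higher peaks at the 12 runs, against 4.10% and 2.20% of all runs. The search used windows of 750 bp, and a peak needed 2 or more neighboring probes that each scored 2 or more, the score being the -log10 of a one-sided p over probes. It contains no spread between mice. With the values as processed by the authors it found 1 lower and 2 higher peaks at the 12 runs. The share of all runs with a peak in those values is not given here, so these counts do not set the blocks apart.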

How the data were processed

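MeDIP DNA (Cy5) and input DNA (Cy3) from 3 LC and 3 CC mice were read on 6 arrays without dye swap. The authors deposited the output of Agilent's Feature Extraction software (version 11.0.1.1), with intensity per dye raw and after background subtraction and linear scaling, and a log10 ratio, used here to check direction. Their own processed values, deposited on a log2 scale, correlated at 0.866 to 0.905 with the log2 ratios used here. How they were normalized was not given in the sources used here.

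Main values were log2 of processed Cy5 over processed Cy3, without 5827 control features and 362 probes marked as outliers on any array (1 of them in the blocks, at Ccl9), centered on the median of each array. Run means were tested in R 4.3.3 with limma 3.58.1 (lmFit, eBayes, threshold 0.05 after Benjamini-Hochberg adjustment), likewise probes and quantile-normalized single channels. Scripts were tested on simulated data. The number of arrays limits the precision.

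Replicate numbers are shared by the groups and go with scan day. Deviations of same-numbered arrays from their group means correlated at -0.16, 0.11 and -0.0008. With 3 arrays in each group, these values cannot show whether the numbers pair the mice. Values of every array are printed for called runs and for the 3 largest differences of each block, as the rule for naming asks, and the arrays of Ccl7, Ccl3 and the named probes were added after their values were seen. Members, lists and tests were chosen with earlier results of these data known. Receptors and other CC chemokines were on the list but were not analysed here, since no gene table of the mm9 build was at hand. Alternatives are given in the closing section.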

Additional observations from a re-analysis of the deposited data

How the results depend on the processing

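The main test called 0 of the 12 runs lower and 1 higher (Ccl4). A replicate block, equal to a block on scan day, gave 0 higher (Ccl4 limma adjusted p = 0.0836), as did the slide as a block, where the arrays of replicates 3 share no slide and add nothing (0.174). The count of higher runs was also 0 after quantile normalization or scaling all arrays to 1 spread, by the methods' t-test, with the median over probes, with runs of at least 1 probe, with runs joined at 300 bp, and with the replicate block in data cleared of a trend on mean level. It was 1 lower (Ccl6) and 0 higher after loess and with that trend cleared alone, and 3 higher (Ccl11, E230016K23Rik and Ccl4) after normexp. The authors' processed values gave 2 lower (Ccl7 and Ccl6) and 2 higher (Ccl9 and Ccl4). Probes well above background in input gave 1 lower (Ccl6) and 2 higher (Ccl8 and Ccl4). With limma's trend and robust variance 2 were higher (Ccl8 and Ccl4). Of 2 alternatives chosen after seeing the data, the first used probes well above background in both channels. It gave 0 higher over 10 runs left, of which 5 differed above 0, against 36.5% of all runs. Runs joined at 1000 bp gave 1 lower (Ccl6) beside 1 higher. Leaving out 1 array at a time gave 0 to 1 lower and 0 to 4 higher. They were 1 and 4 without LC replicate 2 (lower Ccl6, higher Ccl2, Ccl8, Ccl9 and Ccl3) and 0 without each other array, where Ccl4 was not called either. The calls over all 22584 runs moved too, from 1997 lower and 2304 higher to 1526 and 4665 after normexp, 1447 and 707 after loess, 1037 and 520 after quantile normalization, 2091 and 1781 with the authors' values and 2368 and 2863 without LC replicate 2. With the trend cleared alone they were 1268 and 685, and with limma's trend and robust variance 2110 and 2103. Over probes well above background they were 3191 and 2409 of 22038 runs (input) and 4468 and 1241 of 20581 (both channels). With runs joined at 1000 bp they were 1972 and 2416 of 21988. They were 0 and 0 by limma with either block and without CC replicate 1 or 3, and by the methods' t-test, with 2477 to 3739 lower and 3075 to 4521 higher in these fits at an unadjusted p under 0.05.

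Probes called numbered 1 lower and 0 higher. Normexp gave 4 and 11, the authors' values 3 lower, probes well above background in input 3 and 1, and the trend with robust variance 1 higher, while loess, quantile normalization, the same spread, the slide block and the methods' t-test gave 0 lower. Leaving out arrays gave 0 to 3 lower and 0 to 1 higher, with 3 and 1 without LC replicate 2. Peaks were 0 except for 1 higher after normexp and 1 lower and 2 higher with the authors' values. The shares of all probes called and of all runs with a peak are not given for these alternatives. The probe and peak counts therefore do not set the blocks apart from the array. The median level of -0.33 was -0.10 after normexp and -0.0076 after loess. In the input channel, centering in place of quantile normalization added 1 lower run, and leaving out arrays gave 0 to 1 higher, with 1 only without LC replicate 2.

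The sign of the difference turned at Ccl12 after normexp (-0.053), after loess (-0.021), with the authors' values (-0.036), over probes above background in both channels (-0.016) and without LC replicate 1 (-0.026) or 2 (-0.0083), with a range of -0.026 to 0.059 when arrays were left out. It turned at Ccl5 after normexp (-0.0053), over probes above background in input (-0.018) or in both channels (-0.12), with the median over probes (-0.20) and without LC replicate 1 (-8.33e-05, with 0.072 as the highest value when arrays were left out). With the median over probes it also turned at Ccl7 (0.033), Heatr9 (-0.12) and Ccl6 (0.060), and over probes above background in both channels at Ccl11 (-0.0098). The differences of Ccl2, Ccl8, Ccl9, E230016K23Rik, Ccl3 and Ccl4 kept their sign under each alternative in which they were tested, but not their size. The runs of Ccl9 and Ccl3 were not among those left over probes above background in both channels. With the authors' values the differences went down to 0.040 at Ccl2 and 0.042 at Ccl3, and after normexp to 0.038 at Ccl8 and 0.13 at Ccl9. They were 0.054 at E230016K23Rik with the trend cleared and 0.0020 at Ccl4 with the median over probes. Where a count or a sign changed, the cause was not tested.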
